A study of Mus musculus with 8 samples.

Results

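The genes described here are 10 genes of the Hippo pathway and its TEAD factors in the mouse mammary gland. They are the coactivators Yap1 and Wwtr1, the DNA-binding factors Tead1, Tead2, Tead3 and Tead4, the kinases Lats1 and Lats2, the scaffold Amotl2, and Ankrd1, a gene that YAP and TEAD are known to switch on. They were found by gene symbol and make up 10 of the 55933 genes in the expression table, and 8 of the 10 had values above the filter and were tested. Compared between Bmpr1a conditional knockout (cKO) and control mice, 0 of the 8 passed an adjusted or an unadjusted p under 0.05, beside 0.892% and 16.4% of all genes tested, so that few or none of 8 genes would pass at the shares seen over all genes. Ankrd1, which was under the filter, was read 5 to 8 times per library in the control group and 9 to 19 times in the cKO group. Of genes with a mean of 0.1 to 0.5 FPKM, 2.19% were likewise higher in cKO libraries without overlap. With equal sums of FPKM per library the Ankrd1 groups overlapped. Lats1 had 2 reads in all.

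RNA was sequenced from mammary epithelial cells of 4 control and 4 cKO C57BL/6 mice at pregnancy day 14.5, and each mouse gave 1 library. The cKO mice combined K14-rtTA, teto-Cre and floxed Bmpr1a, and doxycycline in the drinking water switched on Cre. The controls were littermates, called WT in the sample labels, and neither their alleles nor whether they drank doxycycline are given in the sources used here. Because the Krt14 promoter drives rtTA, the deletion was aimed at the myoepithelial layer, whereas the glands had been digested with collagenase and hyaluronidase and the libraries held RNA of the whole epithelial preparation. In such bulk samples, fewer cells of a type and less RNA per cell cannot be told apart. Values are FPKM, fragments of RNA per kilobase of gene that the authors scaled for depth, and the libraries held 16456480 to 18778823 reads on genes in the control group and 16123108 to 19896988 in the cKO group.

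The Hippo pathway is a kinase cascade in which the MST kinases, with their partner SAV1, activate LATS1 and LATS2 together with the MOB1 proteins. LATS kinases phosphorylate YAP (Yap1) and TAZ (Wwtr1), which are then held in the cytoplasm or degraded. Free YAP and TAZ enter the nucleus, where they bind TEAD factors and activate genes such as Ccn1, Ccn2 and Ankrd1. The pathway is controlled largely by phosphorylation and location of the proteins, which RNA levels do not report, and in the mammary gland it is known for setting basal and luminal identity and cell growth.

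Bmpr1a, the targeted receptor, was measured first as a check of the labels. It was at 10.6, 11.7, 8.74 and 9.52 FPKM in control replicates 1 to 4 and at 12.0, 12.0, 10.2 and 10.4 FPKM in cKO replicates 1 to 4. The groups overlapped, and the gene was not lower in the libraries labelled cKO (exact two-sided permutation test of the group means, p = 0.257), so control and cKO below stand for the libraries labelled so, and each direction rests on these labels. Other genes of the epithelium, picked after their values had been seen, did not overlap between the groups. The milk protein genes Wap and Csn2 and the alveolar factor Elf5 were 4.84, 2.06 and 1.81 times as high in mean FPKM in the cKO group, and the myoepithelial regulators Trp63 and Snai2 and P-cadherin (Cdh3) were at 0.683, 0.704 and 0.848 times the control mean. Directions differed within the 12 myoepithelial markers, of which 6 had log2 fold changes above 0 and 6 below, and the oxytocin receptor gene Oxtr was 2.16 times as high in the cKO group without overlap. By limma with Benjamini-Hochberg adjustment, the adjusted p was 0.0340 for Wap and 0.0461 for Csn2, and it lay between 0.0591 and 0.181 for the other 5. A gene value of this kind covers all exons of the gene and all cells of the preparation.

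TEAD factors recognise the DNA letters CATTCC, read as GGAATG on the other strand. The letters were looked for on both strands in RefSeq promoters of mouse build GRCm38.p6, each running from 250 bases before to 50 bases after a transcription start. Of 32851 promoters, 14.7% held the core, and 16.6% of the 27025 genes had it in at least 1 promoter. A promoter was found for 8 of the 10 genes (Tead1 and Tead4 had none), and 6 of the 8 held the core, namely Yap1, Wwtr1, Tead3, Lats2, Amotl2 and Ankrd1. The promoters of Ankrd1 and Amotl2 are printed whole because these are feedback or output genes of YAP and TEAD, and the core is in capitals in each. The Ankrd1 promoter (chr19:36119795-36120094, minus strand) held 2 matches, which began 210 and 123 bases before the start, and the Amotl2 promoter (chr9:102717554-102717853, plus strand) held 1 match, which began 65 bases before it.
Ankrd1: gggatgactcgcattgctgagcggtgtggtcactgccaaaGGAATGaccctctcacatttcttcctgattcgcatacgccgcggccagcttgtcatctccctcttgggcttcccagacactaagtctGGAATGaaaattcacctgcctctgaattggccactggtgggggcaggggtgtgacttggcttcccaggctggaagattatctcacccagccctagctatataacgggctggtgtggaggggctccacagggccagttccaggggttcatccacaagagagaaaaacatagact
Amotl2: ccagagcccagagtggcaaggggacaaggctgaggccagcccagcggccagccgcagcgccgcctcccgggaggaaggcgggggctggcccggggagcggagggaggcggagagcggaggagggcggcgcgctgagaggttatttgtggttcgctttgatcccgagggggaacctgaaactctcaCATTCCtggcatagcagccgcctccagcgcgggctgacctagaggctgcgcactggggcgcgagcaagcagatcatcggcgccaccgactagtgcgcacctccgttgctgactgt

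Short windows around the match are given for the coactivators and for Lats2 and Tead3, with each core again in capitals. The match began 141 bases before the start in Yap1 (chr9:8004712-8004757, minus strand), 136 bases before it in Wwtr1 (chr3:57576021-57576066, minus strand) and 4 bases after it in Lats2 (chr14:57746094-57746139, minus strand). Wwtr1 and Lats2 have 2 promoter entries each, and these distances are for the first. In the second, the same Wwtr1 match began 170 bases before the start, and that of Lats2 held no CATTCC. The Tead3 window (chr17:28350698-28350743, minus strand) is that of the match 123 bases before the start of the second of 3 promoter entries, which held 3 matches in all, and the window also takes in the next match, 114 bases before the start.
Yap1: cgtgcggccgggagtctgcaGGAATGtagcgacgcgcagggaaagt
Wwtr1: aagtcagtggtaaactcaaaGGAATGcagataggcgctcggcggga
Lats2: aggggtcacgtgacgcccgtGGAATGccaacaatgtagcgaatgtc
Tead3: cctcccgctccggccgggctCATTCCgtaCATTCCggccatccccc

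In the other promoters searched, Tead2 and Lats1 had no CATTCC. The AP-1 letters TGACTCA, held by 5.20% of all promoters and 5.95% of genes with a promoter, were in 0 of the 8 genes. GGCGCC, a GC-rich SMAD sequence held by 11.9% of all promoters and 13.4% of genes with a promoter, was in 2 of the 8, Amotl2 and Lats2. These matches describe letters in the reference sequence. They are no evidence of binding, and the mouse libraries measured no binding.

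The coactivators were the most abundant of the 10 genes. Yap1 (ENSMUSG00000053110, GRCm38 chr9:7931999-8004596, minus strand) was at 36.7, 36.2, 34.2 and 34.0 FPKM in control replicates 1 to 4 and at 35.0, 37.5, 34.8 and 34.7 FPKM in the cKO replicates. The highest library was cKO replicate 2, the lowest was control replicate 4, and the groups overlapped. Mean Yap1 was 35.3 ± 1.38 FPKM in the control and 35.5 ± 1.38 FPKM in the cKO group (SD, n = 4 each). Its log2 fold change, cKO over control on log2(FPKM + 1), was 0.0077 with a standard error of 0.057 and a 95% interval of -0.12 to 0.14 (limma, Benjamini-Hochberg adjusted p = 0.964). That sign became negative (-0.053) when every library was scaled to the same sum of FPKM. With 5109 to 6249 reads per library, the interval left room for a level between 0.919 and 1.10 times that of the controls on the FPKM + 1 scale. Gm20416, which overlaps 1.25% of the Yap1 exon bases on the other strand, had at most 2 reads in any library.

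Wwtr1, which encodes TAZ (ENSMUSG00000027803, chr3:57455649-57575910, minus strand), was at 48.1, 47.8, 43.4 and 43.4 FPKM in control replicates 1 to 4 and at 47.9, 44.0, 44.1 and 41.9 FPKM in the cKO replicates. Replicates 1 and 2 were the higher ones among the controls, and replicate 1 was the highest of the cKO group. The means were 45.7 ± 2.60 and 44.5 ± 2.50 FPKM (SD, n = 4 each). The log2 fold change was -0.038 with a standard error of 0.066 and a 95% interval of -0.19 to 0.11 (limma, Benjamini-Hochberg adjusted p = 0.826). Exact permutation of the library labels, two-sided, gave p = 0.629 for Wwtr1 and p = 0.886 for Yap1, and 4 libraries against 4 allow no p under 0.0286.

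Summed, Yap1 and Wwtr1 came to 81.0 ± 3.97 FPKM in control and 80.0 ± 2.80 FPKM in cKO libraries. The ratio of Wwtr1 to Yap1 was 1.29 ± 0.0244 in control libraries, with a range of 1.27 to 1.32. In cKO libraries it was 1.25 ± 0.0868, with a range of 1.17 in replicate 2 to 1.37 in replicate 1, so the cKO range took in the whole control range. How the coactivators rank depends on the gene length used. With the deposited length Wwtr1 exceeded Yap1 in 8 of 8 libraries, but the deposited Yap1 length (9257 bases) is longer than its longest coding transcript (4171 bases). On the longest coding transcript the means over the 8 libraries were 78.5 for Yap1 and 45.9 for Wwtr1 on the same scale.

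**Figure D1:**
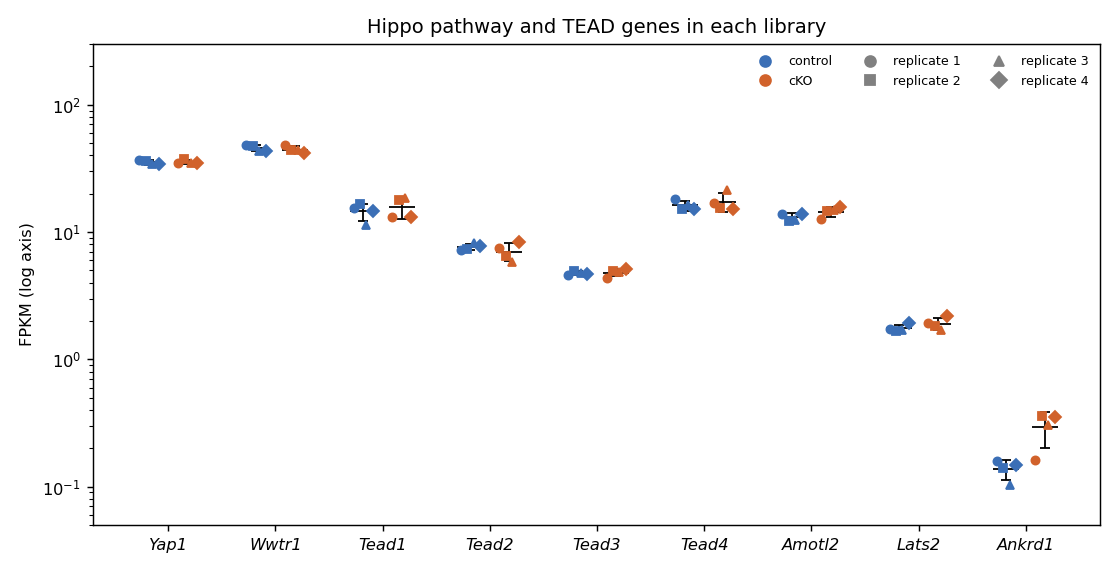
FPKM (log axis) of 9 of the 10 genes in each of the 8 libraries, with the group in colour, the replicate as the symbol, the group mean as a bar and the SD as whiskers. Yap1 and Wwtr1 sit at the top, and Ankrd1 at the bottom is higher in cKO replicates 2, 3 and 4 than in the other 5 libraries. Lats1, listed at 0 in 6 libraries, cannot be drawn on this axis.

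All 4 TEAD genes were expressed. TEAD proteins bind DNA but activate little without a coactivator, and their RNA here was lower than that of Yap1 and Wwtr1. Tead4 (ENSMUSG00000030353, chr6:128224288-128300823, minus strand) was at 18.2, 15.1, 16.2 and 15.2 FPKM in control replicates 1 to 4 and at 16.9, 15.4, 21.4 and 15.1 FPKM in the cKO replicates. Only cKO replicate 3 lay above the control range, and replicate 4 of the same group was at its lower end. Mean Tead4 was 16.2 ± 1.45 and 17.2 ± 2.88 FPKM (SD, n = 4 each). Its log2 fold change was 0.075 with a standard error of 0.11 and a 95% interval of -0.18 to 0.33 (limma, Benjamini-Hochberg adjusted p = 0.788). Without cKO replicate 3 it was -0.028, so this library set the sign.

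Tead1 (ENSMUSG00000055320, chr7:112679318-112906807, plus strand) was at 15.4, 16.5, 11.4 and 14.8 FPKM in control replicates 1 to 4 and at 13.2, 18.0, 18.6 and 13.1 FPKM in the cKO replicates. Replicates 2 and 3 of the cKO group were above every control, while replicates 1 and 4 lay within the control range, and control replicate 3 was the lowest of all. Fos, an immediate early gene that rises quickly in digested tissue, was at 120 and 127 FPKM in cKO replicates 1 and 4 and at 61.7 and 52.3 FPKM in replicates 2 and 3. In the controls, where Tead1 was below cKO replicates 2 and 3, Fos was at 55.4 to 65.6 FPKM. The part of digestion in the Tead1 values was not tested. The Tead1 means were 14.5 ± 2.19 and 15.7 ± 3.02 FPKM (SD, n = 4 each). The log2 fold change was 0.10 with a standard error of 0.15 and a 95% interval of -0.23 to 0.44 (limma, Benjamini-Hochberg adjusted p = 0.778). This was the widest interval among the 8 genes tested, and without control replicate 3 the log2 fold change was -0.000869.

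Tead2 (ENSMUSG00000030796, chr7:45215753-45233644, plus strand) was at 7.24, 7.36, 8.23 and 7.80 FPKM in control replicates 1 to 4 and at 7.51, 6.47, 5.77 and 8.34 FPKM in the cKO replicates. The cKO group held both the lowest library, replicate 3, and the highest, replicate 4. Mean Tead2 was 7.66 ± 0.450 and 7.02 ± 1.13 FPKM (SD, n = 4 each), and the log2 fold change was -0.12 with a standard error of 0.10 and a 95% interval of -0.35 to 0.11 (limma, Benjamini-Hochberg adjusted p = 0.616). The log2 fold change was -0.041 without cKO replicate 3 and -0.20 without cKO replicate 4, so its size rested on single libraries. Tead2 shares 0.272% of its exon bases with Cd37 on the other strand.

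Tead3 (ENSMUSG00000002249, chr17:28331671-28350817, minus strand) was the lowest TEAD gene on the deposited length, though not on transcript length, at 4.61, 4.98, 4.80 and 4.68 FPKM in control replicates 1 to 4 and at 4.35, 4.90, 4.84 and 5.13 FPKM in the cKO replicates. Its cKO libraries spread to both sides of the control range. The log2 fold change was 0.0086 with a standard error of 0.065 and a 95% interval of -0.14 to 0.16 (limma, Benjamini-Hochberg adjusted p = 0.965), and it was -0.043 with equal sums of FPKM per library. Exact two-sided permutation tests of the group means gave p = 0.571 for Tead1, 0.371 for Tead2, 0.829 for Tead3 and 0.6 for Tead4.

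The 4 TEAD genes together came to 43.1 ± 2.08 FPKM in control and 44.7 ± 4.14 FPKM in cKO libraries. Tead4 made up 37.5 ± 2.87% of this sum in control and 38.3 ± 3.61% in cKO libraries, and Tead1 33.5 ± 3.98% and 34.9 ± 4.37%. Tead2 held 17.8 ± 1.92% in control and 15.9 ± 3.80% in cKO libraries, and Tead3 11.1 ± 0.716% and 10.8 ± 1.16%. All 4 shares overlapped between the groups. They depend on gene length. On the longest coding transcript, a comparison added after seeing the data, the control shares were 32.3 ± 3.81% for Tead1, 31.0 ± 2.53% for Tead4, 18.9 ± 1.10% for Tead3 and 17.8 ± 1.84% for Tead2, and all 4 again overlapped with the cKO shares. On the deposited length, within the cKO group, Tead2 ranged from 11.4% in replicate 3 to 20.0% in replicate 4, and Tead1 from 31.3% in replicate 4 to 40.2% in replicate 2. Yap1 and Wwtr1 together exceeded the TEAD sum 1.88 ± 0.0447 times in control and 1.80 ± 0.174 times in cKO libraries, with the lowest value, 1.56, in cKO replicate 3.

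**Figure D2:**
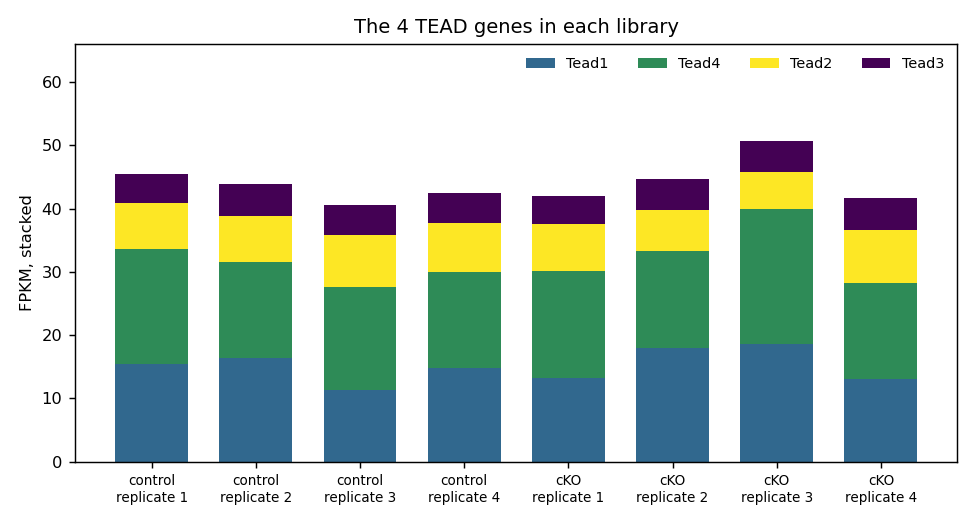
Stacked bars of the FPKM of Tead1, Tead2, Tead3 and Tead4 in each of the 4 control and 4 cKO libraries, on an axis that starts at 0. The sum lies between 40.6 and 45.5 FPKM in the control libraries and between 41.7 and 50.6 FPKM in the cKO libraries, with the top value in cKO replicate 3. Heights use the deposited gene lengths.

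In order of mean FPKM over the 8 libraries, the genes ran from Wwtr1 (45.1) and Yap1 (35.4) to Tead4 (16.7), Tead1 (15.1), Amotl2 (13.8), Tead2 (7.34), Tead3 (4.79), Lats2 (1.83) and Ankrd1 (0.216), and Lats1 was not ranked because its 0 may be a failed estimate. Tead4 was above Tead1 in 6 of 8 libraries, and Tead1 above Amotl2 in 6 of 8, with overlapping ranges in both cases, so neither of these neighbouring pairs differed beyond its spread. Every other neighbouring pair kept its order in 8 of 8 libraries. With the longest coding transcript as the length, the same genes from the third place on read Tead1 (20.6), Amotl2 (20.0), Tead4 (19.5), Tead3 (11.6), Tead2 (10.3), Lats2 (2.46) and Ankrd1 (0.309), so that Tead3 then stood above Tead2. These ranks compare levels, and no difference between groups enters them.

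Of the LATS kinases, which phosphorylate YAP and TAZ, Lats2 was the lowest of the 8 genes tested and Lats1 was listed at or near 0. Lats2 (ENSMUSG00000021959, chr14:57689662-57758388, minus strand) was at 1.72, 1.67, 1.69 and 1.93 FPKM in control replicates 1 to 4 and at 1.94, 1.83, 1.69 and 2.19 FPKM in the cKO replicates. The highest library was cKO replicate 4 and the groups overlapped. The means were 1.75 ± 0.118 and 1.91 ± 0.210 FPKM (SD, n = 4 each), from 187 to 283 reads per library. The log2 fold change was 0.079 with a standard error of 0.078 and a 95% interval of -0.099 to 0.26 (limma, Benjamini-Hochberg adjusted p = 0.670), and an exact two-sided permutation test gave p = 0.229. On the same strand, Gm49361 shares 42.4% of the Lats2 exon bases and is listed at 0 in all 8 libraries. Reads that fall in the shared exons could be left uncounted or split by the authors' counting, so the Lats2 level is uncertain.

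Lats1 (ENSMUSG00000040021, chr10:7681214-7716460, plus strand) was listed at 0 in control replicates 1, 2 and 4 and in cKO replicates 2, 3 and 4. Control replicate 3 was at 0.00818 FPKM and cKO replicate 1 at 0.00710 FPKM, which is 1 read each. Lats1 lies in a stretch of 5 neighbouring coding genes, Lrp11, Pcmt1, Nup43, Lats1 and Katna1 (chr10:7589800-7763150), that had at most 1 read in any library. In total over the 8 libraries, Lrp11 and Pcmt1 had 0 reads, Nup43 had 1 and Katna1 had 3. Nup43 encodes a nuclear pore protein and Pcmt1 a protein repair enzyme, both used by most cells.

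The next coding genes had more reads. Ginm1, which follows Katna1, had 155 to 238 reads per library, Ppil4 had 662 to 896 and Tab2 had 2144 to 2910. On the other side Ulbp1 had 0 to 7 reads and Cnksr3 had 653 to 1088. A value of 0 in a deposited table can be a failed estimate, the neighbours at 0 include genes that most cells use, and the cause was not tested. No fold change is given for Lats1, and its 0 is no statement that the kinase is not expressed.

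**Figure D3:**
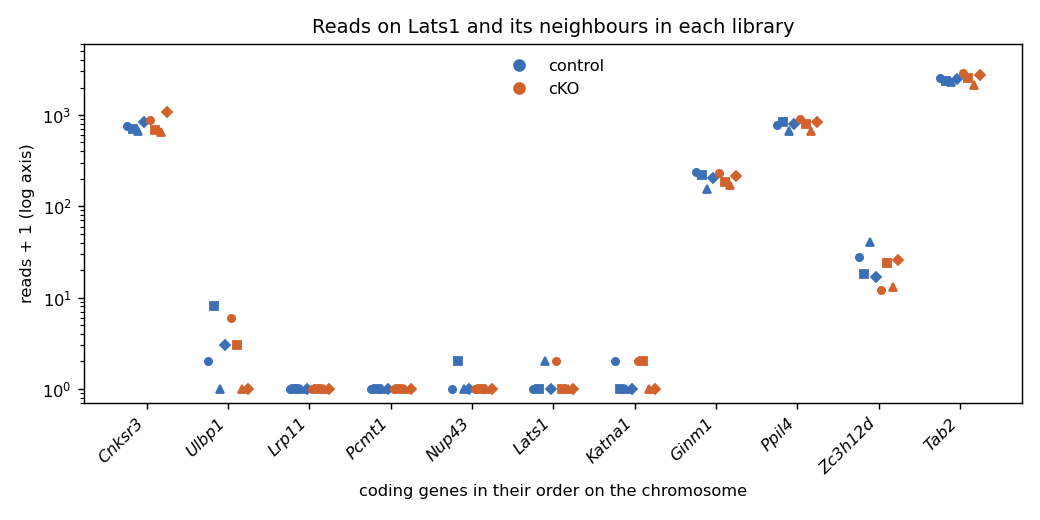
Reads + 1 (log axis) on Lats1 and the 5 coding genes on each side of it, in their order on the chromosome, for the 4 control and 4 cKO libraries. Lrp11, Pcmt1, Nup43, Lats1 and Katna1 lie at the floor with 0 or 1 read in every library, while Ginm1, Ppil4, Tab2 and Cnksr3 have 155 to 2910 reads.

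Amotl2, an angiomotin-family scaffold that binds YAP and is itself induced by YAP and TEAD, had the highest log2 fold change of the 8 genes tested. It (ENSMUSG00000032531, chr9:102716672-102733418, plus strand) was at 13.8, 12.1, 12.5 and 13.9 FPKM in control replicates 1 to 4 and at 12.6, 14.6, 14.9 and 15.8 FPKM in the cKO replicates. In all, 3 of the 4 cKO libraries were above every control, and replicate 1 lay within the control range. The means were 13.1 ± 0.912 and 14.5 ± 1.33 FPKM (SD, n = 4 each). This gave a log2 fold change of 0.13 with a standard error of 0.081 and a 95% interval of -0.049 to 0.32 (limma, Benjamini-Hochberg adjusted p = 0.460), and an exact two-sided permutation test gave p = 0.143. Without cKO replicate 1 the unadjusted p was 0.0303 and the log2 fold change 0.19, with an adjusted p of 0.266 by limma with Benjamini-Hochberg adjustment.

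Ankrd1, a muscle ankyrin-repeat protein gene used as a readout of YAP and TEAD, was near the detection limit. It (ENSMUSG00000024803, chr19:36111961-36120099, minus strand) was at 0.160, 0.140, 0.103 and 0.148 FPKM in control replicates 1 to 4, from 8, 7, 5 and 8 reads. In cKO replicates 1 to 4 it was at 0.162, 0.357, 0.305 and 0.354 FPKM, from 9, 17, 14 and 19 reads. The groups did not overlap, but cKO replicate 1 exceeded the highest control by less than 1 read's worth. Mean FPKM was 0.138 ± 0.0243 in the control and 0.295 ± 0.0919 in the cKO group (SD, n = 4 each), a ratio of 2.14, with p = 0.0286 in an exact two-sided permutation test, the smallest p this design allows.

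The absence of overlap in Ankrd1 depended on the scaling, while the ratio changed little. With equal sums of FPKM per library the ratio was 2.03, the groups overlapped and the exact permutation p was 0.0571. Among 5528 genes with a mean of 0.1 to 0.5 FPKM, 2.19% were higher in cKO libraries with no overlap. Fitted with all genes and no filter on low values, Ankrd1 had a log2 fold change of 0.18 with a standard error of 0.056 and an adjusted p of 0.288 (limma, Benjamini-Hochberg). That value is on log2(FPKM + 1), where adding 1 shrinks differences at such low FPKM. In a fit on the reads (limma-voom, no filter) the log2 fold change was 0.98 with a standard error of 0.39 and a Benjamini-Hochberg adjusted p of 0.337.

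Ankrd1 is also expressed in skeletal muscle. The skeletal muscle marker Acta1 was at 0.188, 0.188, 0.466 and 0.278 FPKM in control replicates 1 to 4 and at 0.607, 0.434, 1.15 and 1.02 FPKM in the cKO replicates. Its levels overlapped between the groups through cKO replicate 2. The 6 skeletal muscle markers summed to 2.92 to 3.52 FPKM in control and 3.52 to 6.08 FPKM in cKO libraries, and only Acta1 and Mb were above the filter. Most of this sum was Mb, which encodes myoglobin, averaged 2.43 ± 0.392 and 2.98 ± 1.08 FPKM with overlap, and shares 31.9% of its exon bases with Apol6 on the other strand. Tnnt3 averaged 0.281 ± 0.191 and 0.178 ± 0.164 FPKM, and Ckm, Myh4 and Actn3 had 0 to 12 reads per library and overlapped. The part of muscle RNA in the Ankrd1 values was not tested.

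The 8 genes tested were then set beside all genes. Among 15143 genes with a mean of at least 0.5 FPKM, 16.4% had an unadjusted p under 0.05 and 0.892% had an adjusted p under 0.05, and 10.7% did not overlap between the groups. Of the 8 genes, 0 passed either threshold and 0 were free of overlap. Their log2 fold changes ran from -0.12 to 0.13 with a median of 0.042, beside a median of 0.000715 over all genes tested. Of the 8, 6 were above 0 and 2 below, whereas 4 were above and 4 below with equal sums of FPKM, with or without milk genes in the sum. A p over the threshold does not show equal levels. The 95% intervals given above show how large a difference each gene could still have had on log2(FPKM + 1). This scale shrinks differences at low FPKM. For Lats2 the log2 fold change was 0.079 on it and 0.12 in a fit on the reads (limma-voom, standard error 0.11).

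**Figure D4:**
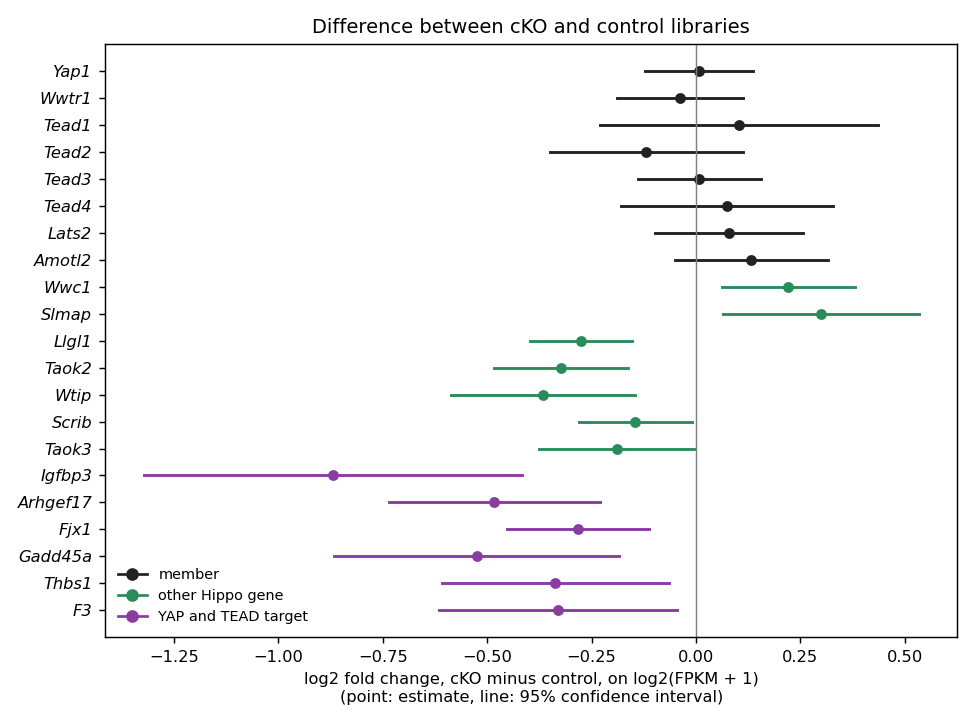
Log2 fold change, cKO minus control on log2(FPKM + 1), with its 95% confidence interval for the 8 pathway genes tested, 7 other Hippo genes and 6 YAP and TEAD target genes. The intervals of the 8 include 0, from the narrow one of Yap1 (-0.12 to 0.14) to the wide one of Tead1 (-0.23 to 0.44), and those of the other 13, which were chosen for an unadjusted p under 0.05, do not.

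The rest of the pathway was read from a list of 40 other Hippo genes, of which 38 were tested (Btrc was under the filter and Vgll1 was listed at 0). In all, 2 were higher and 5 lower in cKO libraries at an unadjusted p under 0.05, or 18.4%, a share near the 16.4% of all genes. In this limma fit 0 of the 38 passed the adjusted threshold. The alternatives gave 0 to 2, among them 1 with limma-voom (Taok2). The counts by direction depended on the scaling, with 0 higher and 7 lower when each library was scaled to the same sum of FPKM, and 1 higher and 5 lower when milk genes were left out of that sum. The genes that passed as deposited kept their signs under every alternative. Over all 15143 genes the same unadjusted threshold gave 1340 higher and 1140 lower as deposited, 789 higher and 1657 lower with equal sums, and 986 higher and 1380 lower without milk genes in the sum. The median log2 fold change was -0.00152, with 19 above and 19 below 0. The core of the cascade, was picked by role after the values had been seen. Stk3 (MST2) averaged 2.94 ± 0.368 FPKM in control and 2.90 ± 0.358 FPKM in cKO libraries, Stk4 (MST1) 9.24 ± 0.823 and 8.76 ± 0.654 FPKM, and their partner Sav1 12.5 ± 1.20 and 13.0 ± 0.546 FPKM. Mob1a, which binds the LATS kinases, averaged 40.0 ± 2.64 and 41.2 ± 2.51 FPKM, while its relative Mob1b averaged 4.37 ± 0.621 and 4.94 ± 0.657 FPKM. Nf2, the upstream scaffold merlin, averaged 14.5 ± 0.449 and 14.7 ± 0.563 FPKM. The 6 unadjusted p-values of these genes lay between 0.212 and 0.868 in limma's fit.

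Higher in the libraries labelled cKO at an unadjusted p under 0.05 were Wwc1 and Slmap, as deposited. With equal sums of FPKM per library neither passed that threshold (limma, Benjamini-Hochberg adjusted p = 0.384 for Wwc1 and 0.367 for Slmap), and without milk genes in the sum Slmap did not (adjusted p = 0.328 by limma with Benjamini-Hochberg adjustment). Their log2 fold changes stayed above 0 in every setting, at 0.16 to 0.26 for Wwc1 and 0.22 to 0.37 for Slmap. Wwc1 (KIBRA), a scaffold that activates LATS, was at 18.7, 18.8, 19.4 and 17.8 FPKM in control replicates 1 to 4 and at 20.3, 22.0, 24.7 and 21.0 FPKM in the cKO replicates. These groups did not overlap, and the log2 fold change was 0.22 with a standard error of 0.071 (limma, Benjamini-Hochberg adjusted p = 0.173). Slmap, a subunit of the STRIPAK phosphatase complex that turns MST kinases off, averaged 19.3 ± 1.83 and 24.0 ± 3.20 FPKM with overlap (log2 fold change 0.30, standard error 0.10, limma and Benjamini-Hochberg adjusted p = 0.202).

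Lower in the libraries labelled cKO at the same unadjusted threshold were the polarity genes Llgl1 and Scrib, the TAO kinases Taok2 and Taok3, which activate MST kinases, and Wtip, a LIM protein that inhibits LATS. Llgl1 was the most even of them in the control group, at 18.5, 18.4, 18.4 and 18.4 FPKM in control replicates 1 to 4, and was at 14.6, 15.0, 16.1 and 14.7 FPKM in the cKO replicates. Its groups did not overlap, and its log2 fold change was -0.28 with a standard error of 0.054 (limma, Benjamini-Hochberg adjusted p = 0.0577). With replicates 1 and 2 as one block and 3 and 4 as another, both Llgl1 (adjusted p = 0.0313) and Taok2 (adjusted p = 0.0420) passed in limma with Benjamini-Hochberg adjustment. Llgl1 shares 1.32% of its exon bases with Flii on the other strand, which had up to 3175 reads per library. Taok2 averaged 7.62 ± 0.704 in control and 5.88 ± 0.148 FPKM in cKO libraries without overlap (log2 fold change -0.32, standard error 0.071, limma and Benjamini-Hochberg adjusted p = 0.0769). In a fit on the reads (limma-voom) its log2 fold change was -0.37, with a Benjamini-Hochberg adjusted p of 0.0488. Wtip averaged 11.0 ± 1.40 and 8.26 ± 0.723 FPKM, also without overlap (log2 fold change -0.37, standard error 0.097, adjusted p = 0.120 by the same limma fit). Scrib and Taok3 overlapped between the groups, with log2 fold changes of -0.14 and -0.19. In a fit on the reads (limma-voom) that of Taok3 was -0.28.

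Target genes were read from a list of 25 genes that YAP and TEAD are known to activate, without the 10 genes above. Of these, 23 were tested (Foxf2 and Col8a1 were under the filter), and 3 of the 25 are also in the list of other Hippo genes (Ajuba, Amotl1 and Ptpn14). At an unadjusted p under 0.05, 0 were higher and 6 were lower in cKO libraries, beside 8.85% higher and 7.53% lower among all genes tested. In this limma fit 0 passed the adjusted threshold. The alternatives gave 0 to 3, among them 1 with limma-voom (Igfbp3). The median log2 fold change of the 23 was -0.081, with 8 above and 15 below 0. The count of 0 higher and 6 lower was the same with equal sums of FPKM, where the direction of the background is reversed as given above. A RefSeq promoter was found for 16 of the 25 target genes, and 5 of the 16 held CATTCC (Ajuba, Axl, Ccn1, Crim1 and Ptpn14), while those of Igfbp3, Gadd45a and F3 did not.

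Igfbp3, an insulin-like growth factor binding protein, had the log2 fold change furthest from 0 among the target genes tested. It was at 139, 114, 158 and 134 FPKM in control replicates 1 to 4 and at 76.1, 89.3, 91.0 and 47.5 FPKM in the cKO replicates. Every cKO library was below every control. The means were 136 ± 18.3 and 75.9 ± 20.1 FPKM (SD, n = 4 each). The log2 fold change was -0.87, with a standard error of 0.20 and a 95% interval of -1.32 to -0.42 (limma, Benjamini-Hochberg adjusted p = 0.0819). In a fit on the reads (limma-voom) its Benjamini-Hochberg adjusted p was 0.0442.

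Thbs1, a matrix glycoprotein, was at 359, 336, 330 and 349 FPKM in control replicates 1 to 4 and at 328, 216, 272 and 281 FPKM in the cKO replicates. The groups did not overlap, although cKO replicate 1 came close to the lowest control, and the log2 fold change was -0.34 with a standard error of 0.12 (limma, Benjamini-Hochberg adjusted p = 0.213). Arhgef17 averaged 19.0 ± 2.16 in control and 13.3 ± 1.87 FPKM in cKO libraries, again without overlap (log2 fold change -0.48, standard error 0.11, limma and Benjamini-Hochberg adjusted p = 0.0837, or 0.0452 with the same blocks of replicates). Fjx1, which encodes a Golgi kinase-like protein related to Drosophila four-jointed, averaged 8.50 ± 0.762 and 6.80 ± 0.418 FPKM without overlap (log2 fold change -0.28). Gadd45a, a growth arrest and DNA damage gene, and F3, tissue factor of the clotting cascade, overlapped between the groups, with log2 fold changes of -0.52 and -0.33.

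The targets most used as YAP readouts, picked after the values had been seen, gave wide intervals. Ccn1 (Cyr61) was at 130, 89.1, 171 and 159 FPKM in control replicates 1 to 4 and at 120, 91.6, 126 and 164 FPKM in the cKO replicates. Replicate 2 was the lowest library of both groups. Its log2 fold change was -0.11 with a 95% interval of -0.63 to 0.40 (limma, Benjamini-Hochberg adjusted p = 0.843). Ccn2 (Ctgf) averaged 79.4 ± 15.4 and 71.6 ± 15.5 FPKM, with a log2 fold change of -0.15 and a 95% interval of -0.55 to 0.25 (limma, Benjamini-Hochberg adjusted p = 0.725). Ccn1 and Ccn2 overlapped between the groups.

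**Figure D5:**
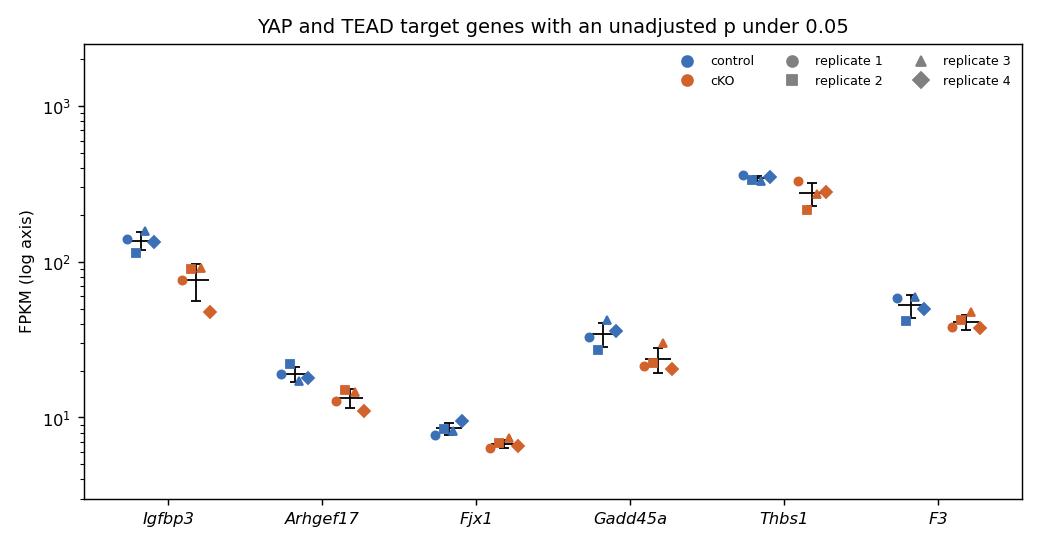
FPKM (log axis) of the 6 target genes with an unadjusted p under 0.05 in each library, with the group in colour, the replicate as the symbol, the group mean as a bar and the SD as whiskers. Igfbp3, Arhgef17, Fjx1 and Thbs1 do not overlap between the groups, and Gadd45a and F3 do.

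Cell type markers moved with the groups in part. Of 7 secretory luminal markers, milk protein genes and Elf5, 6 were higher in cKO libraries at an unadjusted p under 0.05 and 3 at an adjusted p under 0.05, and they summed to 4056 to 5935 FPKM in control and 9005 to 16073 FPKM in cKO libraries. Of 12 myoepithelial markers, 1 was higher and 4 were lower at an unadjusted p under 0.05 (sums of 2019 to 2737 and 1837 to 2534 FPKM). Krt14 averaged 753 ± 93.7 in control and 577 ± 88.9 FPKM in cKO libraries, while Krt5 averaged 126 ± 12.6 and 128 ± 18.5 FPKM and Acta2 825 ± 164 and 953 ± 160 FPKM. Of 9 luminal markers tested 0 passed, with Krt8 at 1763 ± 198 and 1780 ± 377 FPKM and Krt18 at 1278 ± 177 and 1346 ± 260 FPKM. The preparation thus held both epithelial layers.

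Markers of other cells were present too. The 8 fibroblast markers summed to 494 to 1047 FPKM in control and 337 to 813 FPKM in cKO libraries, with 0 past the unadjusted threshold, 0 log2 fold changes above 0 and 8 below (median -0.33), and Col1a1 at 181 ± 67.9 and 133 ± 42.6 FPKM. Of 6 endothelial markers 2 were lower at an unadjusted p under 0.05, and all 6 had log2 fold changes below 0 (median -0.19, sums of 103 to 120 and 78.5 to 109 FPKM), with Pecam1 at 24.2 ± 1.82 and 19.8 ± 3.42 FPKM. Of 5 macrophage markers 1 was lower at that threshold and 5 were below 0 (median -0.31), of 3 pericyte markers tested 0 passed and 3 were below 0 (median -0.11), and of 3 adipocyte markers tested 2 were higher, 1 of them by the adjusted threshold. The 10 digestion response genes summed to 1298 to 1734 FPKM in control and 1125 to 1876 FPKM in cKO libraries, and 0 of them passed. None of these marker genes was listed at 0 in all 8 libraries. Several of the target genes, Igfbp3, Thbs1, F3, Ccn1 and Ccn2 among them, are also expressed by fibroblasts or endothelial cells, and the part of these cells, or of the secretory cells, in any result above was not tested.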

How the data were processed

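RNA was extracted with Trizol and libraries were prepared with a NEBNext Ultra kit. The authors checked reads with FastQC, mapped them with Hisat2, calculated the deposited FPKM and used DESeq2 for their own comparison. The submitters' processing notes name featureCounts 1.5.0-p3, StringTie 1.3.3b and mm9, but 99.7% of the 55394 gene identifiers shared with GENCODE vM21 have its GRCm38 coordinates, the build that the study's methods name, so GRCm38 is given throughout. Whether counting used strand is not given in the sources used here. In the deposited FPKM, 100% of values were whole reads (tolerance 0.01 of a read) at 1 step per library. These steps give 16123108 to 19896988 reads on genes per library and already hold median-of-ratios size factors.

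The group difference in log2(FPKM + 1) was fitted by limma 3.58.1 under R 4.3.3 (empirical Bayes with trend, Benjamini-Hochberg adjustment) over the 15143 genes with a mean of at least 0.5 FPKM. Single genes were also compared by exact two-sided permutation tests, which cannot go below p = 0.0286. The members and lists were chosen with earlier results of these data known. Genes named are the 10 members, list genes with an unadjusted p under 0.05 (at most 6 per list and direction), fixed markers, and those said to be picked later. The scripts were tested on simulated data with known changes and a fixed dispersion of 0.02. At an adjusted p under 0.05, limma on log2(FPKM + 1) recovered 26.9% of 1.5-fold and 89.1% of 2-fold changes. With limma-voom these shares were 55.7% and 92.2%, so smaller changes can be missed. Alternatives were another pseudocount, filters, scaling, blocks, limma-voom on recovered reads, and leaving out each library. For pairing, each group's mean log2(FPKM + 1) was taken off per gene, and the deviations left were correlated between the groups. Deviations of same-numbered libraries correlated by 0.0797 to 0.137 over genes, not all above 0.1, so numbers were not taken as pairs. Within the set of replicates 1 and 2, and that of 3 and 4, deviations correlated by 0.0797 to 0.178 across the groups. Between sets they correlated by -0.21 to -0.072, and deviations that sum to 0 in each group favour negative values there. No label explains these sets, and a fit with them as blocks was an alternative. Python 3.11.15, pandas 2.3.3, scipy 1.17.1 and matplotlib 3.10.9 were used.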

Additional observations from a re-analysis of the deposited data

Results flagged for a closer look

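In groups of 4 libraries, 66 sets of values were searched for a library whose gap to the nearest other exceeded 0.829 of the group's range (Dixon's 95% critical value), and 3 were found where chance gives about 3.3 (1 in 20). Yap1 was at 37.5 FPKM in cKO replicate 2 and at 34.7 to 35.0 FPKM in the other 3 cKO libraries. Lats1 was at 0.00818 FPKM in control replicate 3 and at 0.00710 FPKM in cKO replicate 1, which is 1 read in each, and at 0 in the other libraries of both groups.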

How the results depend on the processing

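At an adjusted p under 0.05, 0 of the members tested were called under each setting run, although 135 genes in all passed in the fit reported above, 10 with no filter, 252 with limma-voom, 223 with limma-voom and no filter (added after seeing the data), 442 when replicates 1 and 2 formed one block and replicates 3 and 4 another, and 0 to 78 without 1 library, 0 without control replicate 4. The replicate block gave 50, and limma-voom with the replicate block 680, the pairing being only by number. Members at an unadjusted p under 0.05 were 1 (Ankrd1) with no filter, also by limma-voom, and 0 to 1 without 1 library (Amotl2, without cKO replicate 1). Of the other Hippo genes 2 were called with the block of replicate sets (Llgl1 and Taok2), 1 with limma-voom (Taok2) and 2 with limma-voom and the replicate block. Without 1 library 4 to 7 passed unadjusted, 4 without control replicate 3. Of the target genes 1 was called with the block of replicate sets (Arhgef17), 1 with limma-voom (Igfbp3), 2 with limma-voom and no filter and 3 with limma-voom and the replicate block.

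Among the 31 genes fitted under the alternatives, which leave out those picked later by role, signs turned for 7 with log2 fold changes between -0.0033 and 0.10. With equal sums of FPKM, and with milk genes left out of the sum, they were -0.053 and -0.025 for Yap1, -0.043 and -0.019 for Tead3, and -0.038 and -0.0091 for Krt5. Without 1 library the ranges were -0.019 to 0.026 (Yap1), -0.000869 to 0.18 (Tead1), -0.018 to 0.047 (Tead3), -0.028 to 0.13 (Tead4), -0.067 to 0.084 (Krt5), -0.093 to 0.089 (Krt8) and -0.044 to 0.15 (Krt18). The Ankrd1 ratio was 2.03 and 2.07 under these scalings, with an exact permutation p of 0.0571, and 1.97 to 2.46 without 1 library. Causes were not tested. Depth limits Ankrd1, with at most 19 reads per library.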
